A study of Mus musculus with 37 samples.

Results

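The 10 genes described here encode transcription factors of the neural plate and neural tube, the epithelium that becomes the brain and spinal cord: Sox1, Hes3, Pax3, Pax7, Pax6, Irx3, Irx5, Nkx6-1, Olig2 and Neurog2. They were found by gene symbol in the table of raw counts, where each has 1 row among 35542 genes, and were followed from 6 to 11 somites in both genotypes of the series. A somite is a paired block of mesoderm, and somite number dates the embryo. The tissue was tailbud, cut 1.5 somites behind the most recent somite boundary at embryonic day 8 to 8.5, so the neural tissue in it was the caudal neural plate beside presomitic mesoderm and their shared progenitors.

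Of the 37 embryos, all C57BL/6/Cast F1, 21 were Smchd1wt and 16 were Smchd1matΔ. Smchd1wt embryos were Smchd1 fl/+ and came from Smchd1 fl/fl mothers that carried no Cre transgene, whereas Smchd1matΔ embryos were Smchd1 del/+ and came from Smchd1 del/fl mothers in which MMTV-Cre had deleted the gene in the oocyte. Both groups had a Castaneus father and an intact paternal Smchd1 allele, so loss of the oocyte supply and loss of the maternal copy in the embryo cannot be told apart in this design. SMCHD1 binds chromatin and helps keep genes silent. The comparison of genotypes asked whether removing it from the oocyte altered expression in the tailbud. There were 4 Smchd1wt and 4 Smchd1matΔ embryos at 6 somites, 4 and 3 at 7, 3 and 2 at 8, 3 and 2 at 9, 4 and 3 at 10, and 3 and 2 at 11 somites. All embryos at 6 somites and all Smchd1matΔ embryos at 8 and 9 somites were female.

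Libraries held 916444 to 80579115 counts (median 12845991), and the shallowest were Smchd1matΔ replicate 3 at 6 somites and Smchd1wt replicate 2 at 7 somites, with 916444 and 3061180. Smchd1 itself was lower in Smchd1matΔ (64.1 to 113 CPM, median 90.3) than in Smchd1wt embryos (104 to 204 CPM, median 149), where CPM are counts scaled to a common library size, after TMM normalization. The log2 difference was -0.74 ± 0.07 (SE, adjusted p = 1.27e-07, edgeR quasi-likelihood test over all genes). Smchd1matΔ replicates 1 and 2 at 6 somites stood apart, with 2.77% and 1.82% of their counts at a ribosomal RNA locus against 0.176% to 1.28% in the other 35 libraries, and values without the pair are given beside the results that could rest on them. The tissue label matched its markers in every library: T, the Brachyury factor of the streak and notochord, was at 101 to 365 CPM and Cdx2, which patterns the posterior axis, at 226 to 429 CPM. Forebrain and hindbrain factors Fezf1, Six3 and Egr2, and the neural crest factors Sox10 and Foxd3, were at a median of 0 CPM. In bulk tissue, fewer cells of a type and less RNA per cell cannot be told apart.

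The neural plate acquires its fate and its dorsal to ventral pattern through factors of this kind. SoxB1 factors such as Sox1 and repressors of the Hes family hold cells as neural progenitors, BMP and Wnt signals from the dorsal side favour Pax3 and Pax7, and Sonic hedgehog from the notochord and floor plate favours Nkx6-1 and Olig2, with Pax6, Irx3 and Irx5 in between, while Neurog2 starts neurogenesis. Toward the tail, FGF and Wnt signals hold back these factors, and retinoic acid from the somites releases them as the axis extends.

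Among the members, Pax3 and Pax7, and Irx3 and Irx5, are pairs of paralogues whose reads could be confused, so the most alike coding windows of 75 bases, the length of a sequenced read, were found in the GENCODE M21 transcripts and are shown with bases that differ within a pair in capitals. All 4 lie within 1 coding exon of GRCm38. The Pax3 window is at chr1:78196668-78196742 on the minus strand and the Pax7 window at chr4:139832830-139832904 on the minus strand. The Irx3 window is at chr8:91800496-91800570 on the minus strand and the Irx5 window at chr8:92359741-92359815 on the plus strand.
Pax3: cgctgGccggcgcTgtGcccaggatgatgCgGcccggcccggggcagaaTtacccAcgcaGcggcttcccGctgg
Pax7: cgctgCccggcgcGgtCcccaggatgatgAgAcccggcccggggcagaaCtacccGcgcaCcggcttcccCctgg
Irx3: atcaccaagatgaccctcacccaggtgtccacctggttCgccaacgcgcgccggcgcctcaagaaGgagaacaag
Irx5: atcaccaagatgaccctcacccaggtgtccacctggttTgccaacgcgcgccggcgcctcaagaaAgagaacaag
The Pax pair differed at no fewer than 9 of 75 bases (88% identity). The Irx pair, which codes for the Iroquois homeodomain, differed at 2 of 75 (97.3% identity). No window of 75 bases was therefore identical between the members of either pair. Of all distinct windows in the members' transcripts, 12 of 4758 in Sox1, 11 of 12883 in Pax6 and 64 of 2762 in Irx3 (2.32%) were also found in a transcript of another gene, and none in the other 7 members. Those of Irx3 were shared with Irx6 and with Irx3os, an antisense transcript that overlaps 124 bases of Irx3 exons and had 1238 counts against 11962 for Irx3. The counts do not separate strands, so a small part of the Irx3 values may come from Irx3os.

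Levels were first compared between genes per length, as RPKM (CPM divided by the kilobases of the gene's exon union). Hes3, a bHLH repressor that delays differentiation of neural progenitors, was the highest at a median of 11.4 RPKM over the 37 embryos (2.06 to 20.2). Irx3 followed at 6.67 RPKM (3.26 to 13.3) and Pax3 at 1.51 RPKM (0.619 to 2.39). Irx5 was at 0.751 RPKM (0 to 1.45). From Hes3 to Irx5, and from Irx5 to the next gene, each step exceeded the larger SD of the 2 genes, and the order held in 33, 37, 34 and 31 of 37 embryos.

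The remaining members were low and could not be ranked. Neurog2 (0.288 RPKM), Pax6 (0.257), Pax7 (0.196), Nkx6-1 (0.192) and Sox1 (0.12) had medians closer to their neighbours than the larger SD. With the longest transcript as the length, Pax6 was at 0.68 RPKM, above Neurog2, and Pax3 at 2.42 RPKM. The step from Irx5 (0.921 RPKM on that length) to Pax6 was then smaller than the SD of Pax6 (0.561). In raw counts, Hes3 averaged 344 per library, Irx3 323, Pax3 138, Pax6 51.3, Irx5 38.9 and Pax7 20.5, while Neurog2, Nkx6-1 and Sox1 averaged 15.6, 15.1 and 12.8.

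**Figure D1:**
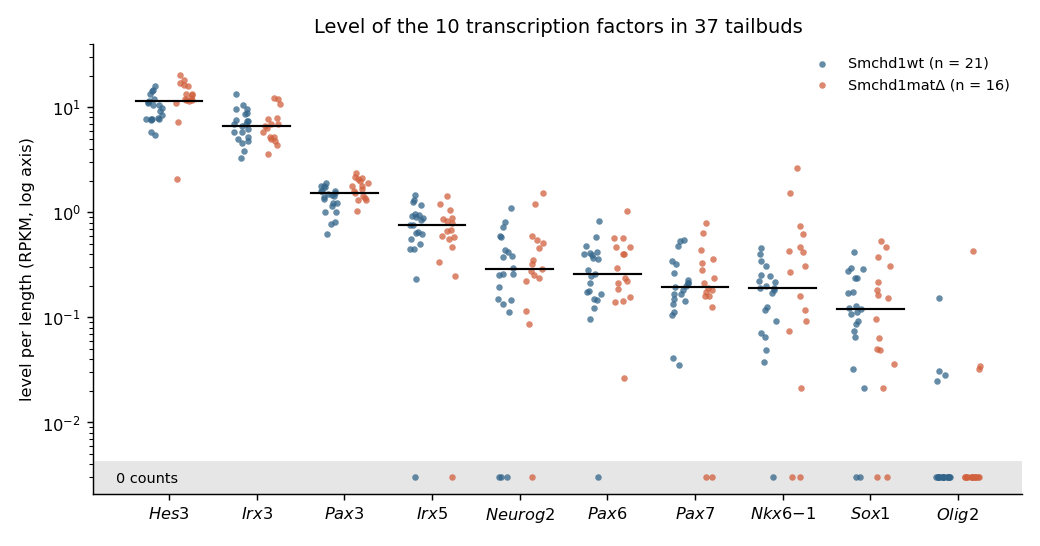
Level of each factor in every embryo, in RPKM on a log axis, with 21 Smchd1wt and 16 Smchd1matΔ embryos as points and the median of all 37 as a line. Embryos with 0 counts sit in the grey band. Hes3 (median 11.4 RPKM) and Irx3 (6.67 RPKM) stand above the rest, and Olig2 was at 0 counts in 30 of 37 embryos.

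Olig2, the bHLH factor of motor neuron and oligodendrocyte progenitors, had 23 counts in all 37 libraries together. It was at 0 in 30 embryos, at 1 count in 5 and at 3 counts in another, and the remaining 15 counts were all in Smchd1matΔ replicate 2 at 6 somites (1.09 CPM). For a library at 0, a limit of 3 counts allows 0.0372 to 3.27 CPM depending on depth (median 0.234), which covers counting error only. Olig2 passed the filter on low counts in no comparison, so 9 members at most were tested.

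Among related genes, the SoxB1 factors Sox2 (14.9 RPKM, 7.51 to 40.4) and Sox3 (2.66 RPKM, 0.884 to 5.43) were higher than Sox1 in median. In the Hes family, Hes1 was at a median of 21.9 RPKM, Hes7, a gene of the segmentation clock, at 18, Hes6 at 10.3 and Hes5 at 4.33, beside 11.4 for Hes3. The ventral genes Shh (5.56 RPKM) and Foxa2 (4.15 RPKM) were present in every library, while Nkx2-2, a p3 domain factor, and the intermediate progenitor factor Dbx1 were at a median of 0. Of the 24 paralogues of the members that were looked up, 13 had a mean of at least 10 counts and 10 a mean under 3 counts.

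The change with somite number was then tested in each genotype, with sex as a covariate. In Smchd1wt embryos Sox1 rose. Its levels at 6 to 8 somites ran from 0 to 0.819 CPM with a median of 0.36, and at 9 to 11 somites from 0.451 to 2.04 CPM with a median of 1.15. Most of the later embryos were thus above all of the earlier ones, although the ranges overlapped. The fitted rise was log2 0.41 ± 0.12 per somite (SE, n = 21, 95% interval 0.17 to 0.65, adjusted p = 0.0354), or 1.33-fold per somite. It was the only member called of 9 tested, and 6.61% of the 15667 genes tested were called in either direction. Raw counts of Sox1 were small, with at least 10 in 7 of 21 libraries, 1 of 11 at 6 to 8 somites and 6 of 10 at 9 to 11. Sox1 thus passed the filter on low counts through the stages where it was higher, so its p is no separate support for a rise.

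The call for Sox1 was close to the threshold. It was lost without Smchd1wt replicate 1 or 2 at 6 somites, replicate 4 at 7, replicate 3 or 4 at 10, and replicate 1 or 2 at 11 somites, with adjusted p of 0.0734, 0.0512, 0.0571, 0.0537, 0.0668, 0.116 and 0.0777. The slope itself stayed between 0.36 and 0.51 when any of the 21 libraries was left out. Among females alone it was 0.33 ± 0.15 (adjusted p = 0.159), and without the 6-somite embryos 0.53 ± 0.14 (adjusted p = 0.1).

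Pax6 and Irx3 had smaller positive slopes that did not pass adjustment. Pax6, a paired and homeodomain factor of neural progenitors that retinoic acid promotes in the caudal neural plate, had a median of 2.11 CPM at 6 to 8 somites (0 to 4.68) and of 4.73 CPM at 9 to 11 (1.44 to 9.67). Its slope was 0.22 ± 0.09 (unadjusted p = 0.0157, adjusted p = 0.123). Among females alone it was 0.3 ± 0.07 with an adjusted p of 0.00863. Irx3, an Iroquois factor of the neural plate whose domain borders that of Olig2, had a slope of 0.13 ± 0.05 (unadjusted p = 0.0218, adjusted p = 0.149). Without the 6-somite embryos the Irx3 slope fell to 0.04 ± 0.07. With Sox1 these made 3 of 9 members at an unadjusted p under 0.05, against 21.4% of all genes tested. Sox1 is in this count although it passed the filter on low counts through the later stages, where it was higher.

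No slope was detected for the other 6 tested members in Smchd1wt embryos. Hes3 had a slope of 0.07 (95% interval -0.02 to 0.17), Pax3 0.09 (-0.01 to 0.18), Irx5 0.16 (-0.01 to 0.34) and Pax7 -0.16 (-0.37 to 0.05). Those of Neurog2 (0.03) and Nkx6-1 (0.02) had intervals from -0.3 to 0.36 and from -0.23 to 0.26.

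**Figure D2:**
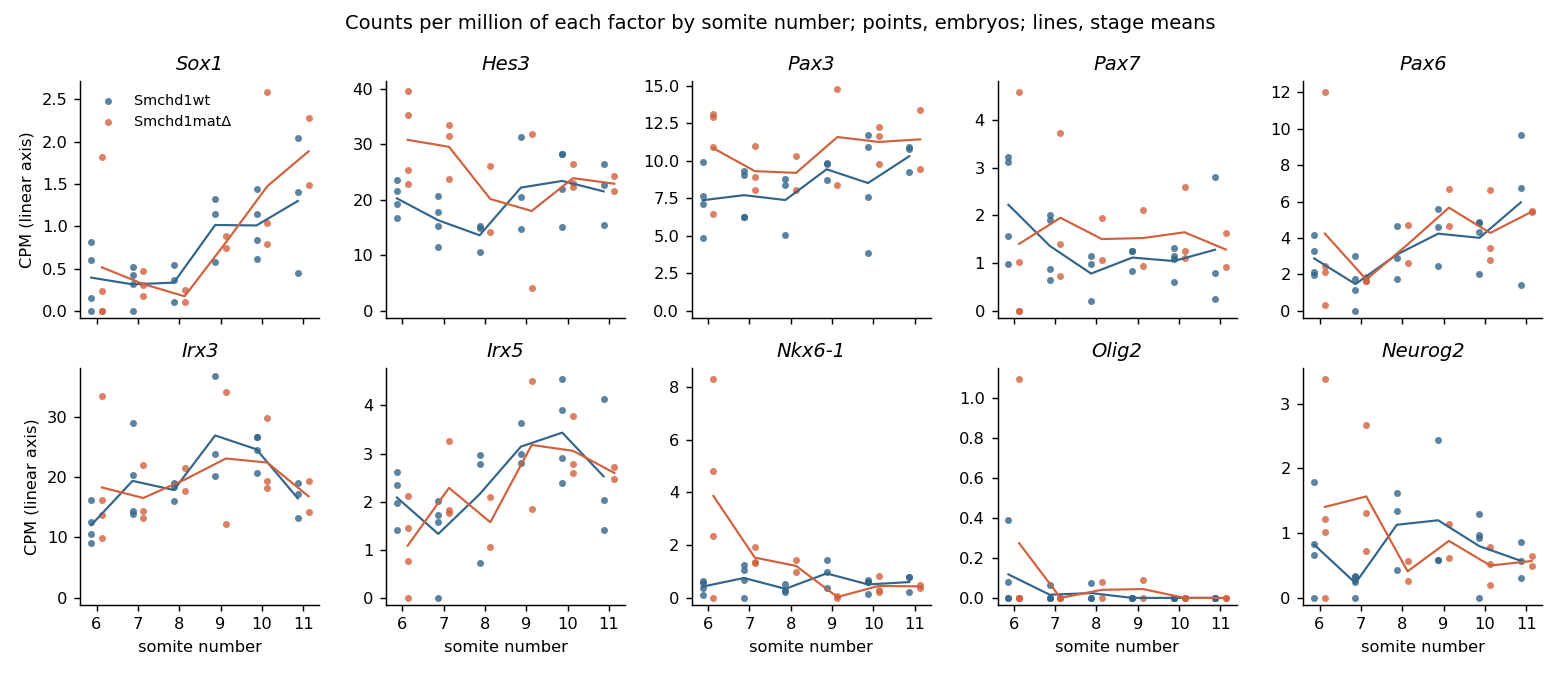
Level of each factor in CPM against somite number, on linear axes that differ between panels, with embryos as points and stage means as lines (Smchd1wt blue, Smchd1matΔ orange). Sox1 was higher from 9 somites on, Nkx6-1 was highest in Smchd1matΔ at 6 somites (up to 8.3 CPM), and the Pax6 point at 12 CPM is the shallowest library, with 11 counts.

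In Smchd1matΔ embryos Nkx6-1 fell with somite number. Nkx6-1 is a homeodomain factor that Sonic hedgehog induces in ventral progenitors, including those of motor neurons. At 6 somites its levels were 8.3, 4.81, 0 and 2.35 CPM in replicates 1 to 4. At 7 somites they were 1.34, 1.31 and 1.93 CPM and at 8 somites 0.97 and 1.45 CPM. Apart from the shallowest library, at 0 counts, these earlier embryos were all higher than the later ones, which had 0.0673 and 0 CPM at 9 somites, 0.231, 0.846 and 0.287 CPM at 10, and 0.499 and 0.372 CPM at 11. The slope was -0.77 ± 0.17 (SE, n = 16, 95% interval -1.14 to -0.41, adjusted p = 0.0183), a factor of 0.586 per somite. Nkx6-1 was the only member called of 9 tested, with 2.95% of 16222 genes called. It had at least 10 counts in 8 of 9 embryos at 6 to 8 somites and in 1 of 7 at 9 to 11. It thus passed the filter on low counts through the stages where it was higher, so its p is no separate support for a fall.

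The highest values of Nkx6-1 lay in libraries that stood apart. Without the pair rich in ribosomal RNA counts the slope was -0.57 ± 0.17 (adjusted p = 0.109), without the 6-somite embryos -0.58 ± 0.2 (adjusted p = 0.213), and without Smchd1matΔ replicate 3 at 10 somites -0.75 ± 0.19 (adjusted p = 0.0501). The same pair also held the most somite RNA: the summed level of the 8 somite genes other than Pax3 was 32.7 and 73 CPM there, against 4.37 and 19.5 CPM in the other Smchd1matΔ embryos at 6 somites and 3.98 to 13 CPM in Smchd1wt embryos at 6 to 8 somites. Meox1, an early somite gene, was at 12.9 and 39 CPM in the pair, whereas the sclerotome gene Pax1 was at 0 in every library. The part of tissue makeup in the Nkx6-1 values was not tested.

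Sox1 and Pax6 also had positive slopes in Smchd1matΔ embryos, which did not pass adjustment. The Sox1 slope was 0.43 ± 0.17 (unadjusted p = 0.0191, adjusted p = 0.187). It depended on Smchd1matΔ replicate 2 at 6 somites, whose 25 counts (1.82 CPM) were far above the 0, 0 and 0.235 CPM of the other embryos of its group, and without that library it was 0.77 ± 0.14 (adjusted p = 0.00626). Without the pair rich in ribosomal RNA counts, which holds that library, it was 0.74 ± 0.14 (adjusted p = 0.008), so Sox1 passed and Nkx6-1 did not. From 7 to 11 somites alone the slope was 0.78 ± 0.16 (adjusted p = 0.0358). Levels of Sox1 at 9 to 11 somites ran from 0.74 to 2.59 CPM, all above the values at 7 and 8 somites. It had at least 10 counts in 1 of 9 libraries at 6 to 8 somites and in 7 of 7 at 9 to 11. Here too it passed the filter on low counts through the later stages, so these p-values are no separate support for a rise.

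The Pax6 slope was 0.33 ± 0.11 (unadjusted p = 0.00914, adjusted p = 0.132). The shallowest library, with 11 Pax6 counts (12 CPM) at 6 somites, lay above all other Smchd1matΔ embryos, and without it the slope was 0.41 ± 0.09 (adjusted p = 0.0113). DESeq2 gave 0.31 ± 0.1 (adjusted p = 0.0456). Neurog2, the proneural bHLH factor, had a slope of -0.36 ± 0.14 (unadjusted p = 0.0188, adjusted p = 0.185), with 3.38 CPM in replicate 1 at 6 somites as its highest value. Without the pair rich in ribosomal RNA counts the Neurog2 slope was -0.31 ± 0.14 (unadjusted p = 0.0464) and the Pax6 slope 0.27 ± 0.1 (unadjusted p = 0.016). Together with Nkx6-1 these made 4 of 9 members at an unadjusted p under 0.05, against 17.1% of all genes. Sox1 and Nkx6-1 in this count passed the filter on low counts through the stages where they were higher. For Irx5 the slope was 0.2 (95% interval -0.0004 to 0.4), for Pax3 0.06 (-0.04 to 0.16), for Irx3 0.05 (-0.1 to 0.2), for Pax7 -0.09 (-0.4 to 0.22) and for Hes3 -0.11 (-0.27 to 0.05).

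**Figure D3:**
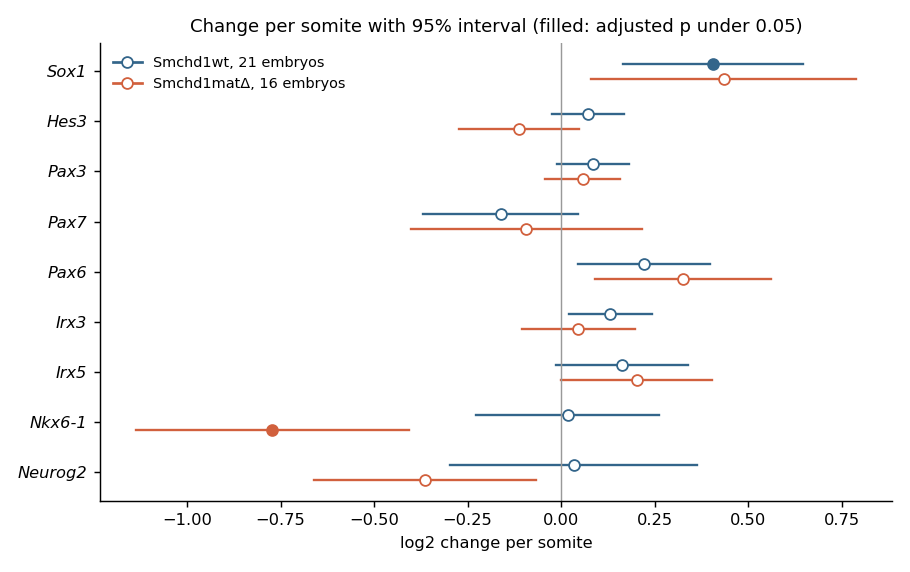
Change per somite of the 9 tested factors (x axis, log2 per somite) in Smchd1wt (blue) and Smchd1matΔ (orange) embryos, with 95% intervals as bars and filled points for an adjusted p under 0.05. Sox1 in Smchd1wt (0.41) and Nkx6-1 in Smchd1matΔ (-0.77) are the filled points. Each passed the filter on low counts through the stages where it was higher.

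The difference between the genotypes in slope was tested in a single model of all 37 embryos. For none of the 9 members, and for 0% of 16729 genes, did it pass adjustment in edgeR, and DESeq2 also called 0 genes. At an unadjusted p under 0.05 there was 1 member, against 4.08% of genes. This was Nkx6-1, with a slope lower by 0.82 ± 0.2 in Smchd1matΔ (difference -0.82, 95% interval -1.22 to -0.42, unadjusted p = 0.000184, adjusted p = 0.514). Without the pair rich in ribosomal RNA counts the difference was -0.59 ± 0.2 (unadjusted p = 0.00577). It rests on the same Smchd1matΔ counts as the Nkx6-1 slope above, so the difference and that slope are not separate results. For Sox1 the difference in slope was -0.02 (95% interval -0.38 to 0.35), which became 0.3 (-0.08 to 0.68) without the pair, and for Pax6 0.11 (-0.17 to 0.39). Those of Neurog2 (-0.39, -0.84 to 0.05) and Hes3 (-0.17, -0.35 to 0.01) were negative with intervals that reached past 0.

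The genotypes were next compared at matched somite number. Over all stages no member passed adjustment of the 8 tested, and 0.0136% of 14733 genes did (2 genes, of which Smchd1 was 1). At an unadjusted p under 0.05 there were 2 members, Pax3 and Hes3, against 5.66% of genes, and DESeq2 called 3 genes and no member. Pax3, a paired and homeodomain factor of the dorsal neural tube that is also made in presomitic mesoderm and somites, ran from 3.83 to 11.7 CPM (median 8.78) in Smchd1wt and from 6.44 to 14.8 CPM (median 10.6) in Smchd1matΔ embryos. It was above the Smchd1wt mean of its own stage in 13 of 16 Smchd1matΔ embryos, yet the groups overlapped at every stage. The log2 difference was 0.33 ± 0.12 (unadjusted p = 0.00914, adjusted p = 0.864). Without the pair rich in ribosomal RNA counts it was 0.27 ± 0.12 (unadjusted p = 0.0382).

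Hes3 was also above the Smchd1wt stage mean in 13 of 16 Smchd1matΔ embryos. It ran from 10.6 to 31.3 CPM (median 19.2) in Smchd1wt and from 4.05 to 39.6 CPM (median 24.8) in Smchd1matΔ embryos. The log2 difference was 0.35 ± 0.16 (unadjusted p = 0.0378, adjusted p = 0.864), and 0.27 ± 0.17 (unadjusted p = 0.124) without the pair rich in ribosomal RNA counts. The other 6 tested members had differences of -0.05 (Irx5) to 0.31 (Pax7), and their 95% intervals all included 0. These intervals were widest for Neurog2, at -0.58 to 1.02, and narrowest for Irx3, at -0.21 to 0.36.

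Split by window, the excess of Hes3 was at 6 to 8 somites. Smchd1wt embryos there had 10.6 to 23.6 CPM with a median of 16.7, and Smchd1matΔ embryos had 14.3 to 39.6 CPM with a median of 26. All 9 Smchd1matΔ embryos lay above the Smchd1wt mean of their own stage, though the ranges overlapped. The log2 difference was 0.68 ± 0.14 (n = 20, 95% interval 0.39 to 0.97, unadjusted p = 7.75e-05, adjusted p = 0.225), or 1.6-fold. Without the pair rich in ribosomal RNA counts it was 0.58 ± 0.15 (unadjusted p = 0.00111). Over 14495 genes the edgeR test called 1 gene (0.0069%) and none of the 7 members tested, whereas DESeq2 called 30 genes, Hes3 (adjusted p = 0.00601) and Nkx6-1 (adjusted p = 0.0155) among them. DESeq2 used the same filter on low counts, which Nkx6-1 passed through the group where it was higher. The summed level of the 13 pan-neural genes in this window was 381 to 566 CPM (median 525) in Smchd1wt and 429 to 668 CPM (median 597) in Smchd1matΔ embryos, and its part in the Hes3 difference was not tested.

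By stage, Hes3 was at 23.6, 19.2, 21.6 and 16.7 CPM in Smchd1wt and at 39.6, 35.3, 22.9 and 25.4 CPM in Smchd1matΔ embryos at 6 somites. The 2 highest of these are the pair rich in ribosomal RNA counts, and the log2 difference of 0.64 ± 0.2 became 0.27 ± 0.23 without them. At 7 somites Smchd1wt embryos had 11.4, 20.7, 17.9 and 15.3 CPM and Smchd1matΔ embryos 31.5, 23.7 and 33.4 CPM. Here the groups did not overlap, with a difference of 0.87 ± 0.18 (unadjusted p = 0.000633, adjusted p = 0.962). Tests within a stage did not include sex as a covariate. At 8 somites the values were 10.6, 15.3 and 15 against 14.3 and 26 CPM, and from 9 somites on the groups were mixed, with the lowest Hes3 value of the series (4.05 CPM) in Smchd1matΔ replicate 2 at 9 somites.

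Nkx6-1 had the largest fitted difference of the members at 6 to 8 somites. Smchd1wt embryos had 0 to 1.25 CPM with a median of 0.539, and Smchd1matΔ embryos 0 to 8.3 CPM with a median of 1.45. In 8 of 9 Smchd1matΔ embryos it was above the Smchd1wt stage mean. These are the counts that also set its slope, so the slope and this difference are not separate results. The log2 difference was 1.99 ± 0.47 (95% interval 1.02 to 2.97, unadjusted p = 0.000328, adjusted p = 0.309), and 1.35 ± 0.39 (unadjusted p = 0.00214) without the pair rich in ribosomal RNA counts. Nkx6-1 had at least 10 counts in 8 of 9 Smchd1matΔ but in 2 of 11 Smchd1wt embryos, so it passed the filter on low counts through the group where it was higher. Its p is therefore no separate support for a difference. Without any filter its difference, from the same low counts, was 2 ± 0.44 (adjusted p = 0.0191), and that of Hes3 had an adjusted p of 0.00429.

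Pax3 was the third member with an unadjusted p under 0.05 at 6 to 8 somites, against 8.13% of genes tested. Its levels were 4.84 to 9.91 CPM (median 7.64) in Smchd1wt and 6.44 to 13.1 CPM (median 10.3) in Smchd1matΔ embryos, and its difference was 0.45 ± 0.16 (unadjusted p = 0.0104, adjusted p = 0.476). Without the pair rich in ribosomal RNA counts it was 0.34 ± 0.17 (unadjusted p = 0.0636). Sox1 and Neurog2 were too low to be tested in this window. Neurog2 ran from 0 to 1.79 CPM in Smchd1wt and from 0 to 3.38 CPM in Smchd1matΔ embryos. For Pax6, Pax7, Irx3 and Irx5 the differences were 0.12, 0.4, 0.18 and -0.2, each smaller than its SE (0.43, 0.48, 0.2 and 0.37). Without the pair they were 0.37, 0.36, -0.05 and -0.03, so that of Irx3 changed sign.

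At 9 to 11 somites no member of 8 tested passed adjustment, nor did any reach an unadjusted p under 0.05. For comparison, 0.00671% of 14909 genes passed adjustment (1 gene in edgeR and in DESeq2), and 1.75% had an unadjusted p under 0.05. Differences ran from -0.5 ± 0.45 (Neurog2) to 0.42 ± 0.36 (Pax7). Hes3 had a median of 22.3 CPM (14.8 to 31.3) in Smchd1wt and of 23 CPM (4.05 to 32) in Smchd1matΔ embryos, a difference of -0.06 (95% interval -0.63 to 0.51). Pax3 had medians of 9.8 and 11.7 CPM and a difference of 0.34 (-0.01 to 0.68), so its size was close to that of the earlier window but its interval reached 0.

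Nkx6-1 was not tested at 9 to 11 somites, where it had at least 10 counts in 6 of 10 Smchd1wt and 1 of 7 Smchd1matΔ embryos. Its median there was 0.644 CPM (0.154 to 1.45) in Smchd1wt and 0.287 CPM (0 to 0.846) in Smchd1matΔ embryos, and 1 of 7 Smchd1matΔ embryos was above the Smchd1wt stage mean. The order of the genotypes was thus opposite to that at 6 to 8 somites, as a description.

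**Figure D4:**
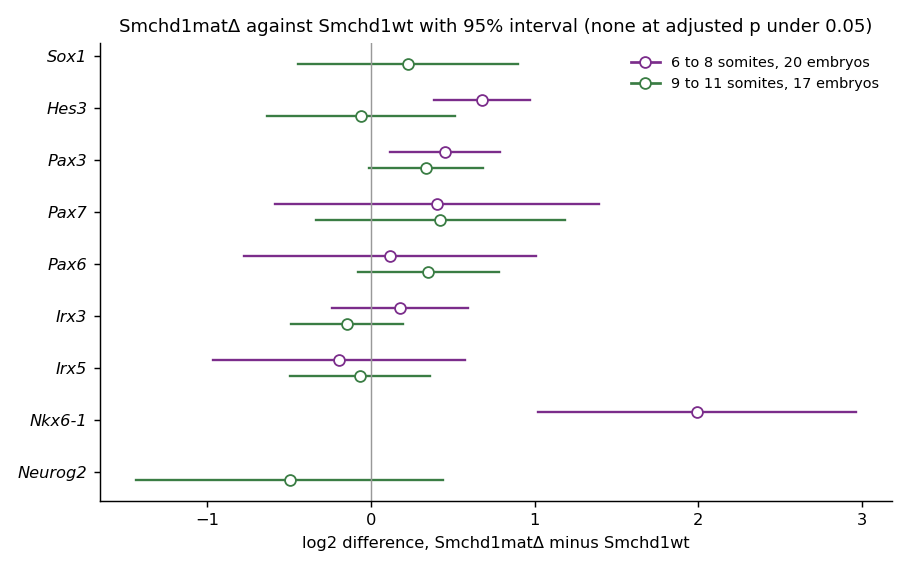
Log2 difference between Smchd1matΔ and Smchd1wt embryos (x axis) for the factors tested at 6 to 8 somites (purple, 20 embryos) and at 9 to 11 somites (green, 17 embryos), with 95% intervals as bars. Hes3 (0.68) and Nkx6-1 (1.99) lie farthest from 0 relative to their intervals at 6 to 8 somites, and no point passed adjustment. Nkx6-1 passed the filter on low counts there through the group where it was higher.

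The change in the genotype effect between the windows was tested directly. It passed adjustment for none of 8 members and for 0% of 14733 genes, in DESeq2 also for 0, and 3.36% of genes had an unadjusted p under 0.05. Hes3 was the 1 member among these, with an effect lower by 0.76 on the log2 scale at 9 to 11 somites (-0.76 ± 0.31, unadjusted p = 0.019, adjusted p = 1), and by 0.67 without the pair (-0.67 ± 0.33, unadjusted p = 0.0512). For Pax3 the change was -0.07 (95% interval -0.57 to 0.44), and for Neurog2 -1.35 (-2.93 to 0.23).

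Within single stages, tested without sex as a covariate, no member passed adjustment among 6 to 9 tested, and 0% of 14191 to 15332 genes did. At an unadjusted p under 0.05 there was 1 member each at 6, 7, 8 and 9 somites and none at 10 and 11, against 5.54%, 4.83%, 2.81%, 1.15%, 0.56% and 8.66% of genes. The member was Hes3 at 6 and 7 somites and Nkx6-1 at 8 and 9. At both of the latter stages Nkx6-1 passed the filter on low counts through the group where it was higher, with 19 and 18 counts in Smchd1matΔ against 4, 6 and 2 in Smchd1wt at 8 somites, and 1 and 0 against 119, 10 and 7 at 9, so its p there is no support for a difference. DESeq2 called 2 genes at 7 somites, 1 at 8 and 10 at 11, and no member.

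Groups of a stage that did not overlap were few. At 7 somites all Smchd1matΔ embryos were above all Smchd1wt embryos for Hes3, for Nkx6-1 (1.31 to 1.93 against 0 to 1.25 CPM) and for Neurog2 (0.724 to 2.66 against 0 to 0.334 CPM), which 3.59% of 16729 genes also showed. At 8 somites the same held for Nkx6-1 (0.97 and 1.45 against 0.288, 0.539 and 0.206 CPM), as for 8.22% of genes. At 9 somites Nkx6-1 lay the other way, at 0.0673 and 0 CPM against 1.45, 0.964 and 0.37 CPM, as 6.51% of genes did. The 9-somite Smchd1matΔ values of Nkx6-1 rest on 1 count in all. Sox1, Pax3, Pax6, Pax7, Irx3, Irx5 and Olig2 overlapped between genotypes at every stage.

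Other genes of the neural pathways were counted from lists, beside 6.61% of all 15667 genes tested with a called slope in Smchd1wt embryos. A single call in lists this short is no result about the list. With somite number in Smchd1wt embryos, 0 of 11 tested pan-neural genes rose and 1 fell (Nkx1-2, which marks the preneural caudal epiblast, -0.11 ± 0.03, adjusted p = 0.0294). The median slope of the list was 0.05, against 0 over all genes tested. In the dorsal list 1 of 7 rose (Lmx1a, a roof plate factor, 0.25 ± 0.07, adjusted p = 0.0424) and none fell, and none passed of 6 in the ventral list or of 1 in the intermediate list. Of the neurogenesis list, 1 of 8 rose, Ebf2, a factor of differentiating neurons that is also made in other tissues (1.24 ± 0.18, adjusted p = 0.000109), and 1 fell, Tubb3, a neuronal tubulin (-0.18 ± 0.03, adjusted p = 0.00104). Among 10 Sonic hedgehog genes, the co-receptor Gas1 rose by 0.14 ± 0.03 per somite and the target Gli1 had a slope of -0.11 ± 0.03. Of 12 genes of retinoic acid and FGF signalling, Cyp26a1, which clears retinoic acid, rose by 0.2 ± 0.04, and the FGF target Etv4 had a slope of -0.16 ± 0.02. No gene of these 7 lists other than those named passed adjustment.

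Lists for tissues around the neural plate were counted in the same way in Smchd1wt embryos, against the same 6.61% of all genes tested. Of the progenitor and streak genes 2 of 9 fell (Cdx1, a posterior patterning factor, and Nkx1-2), of the endoderm genes 3 of 7 fell and 1 rose (median slope -0.54), of the neural crest genes 1 of 5 rose (Ets1), and of the brain genes 1 of 3 fell (Pax2). None passed of 6 presomitic mesoderm, 5 somite, 7 notochord and 8 surface ectoderm genes. Of 13 paralogues of the members, Hes1 rose and Pax2 fell.

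Between genotypes over all stages, no gene of any of the lists passed adjustment. The median log2 difference was 0.17 over 11 pan-neural genes, 0.1 over 6 dorsal, 0.27 over 5 ventral, 0.13 over 7 neurogenesis and 0.08 over 10 Sonic hedgehog genes, against 0.21 over the 8 members tested and 0 over all genes. At 6 to 8 somites the pan-neural median was 0.34, with 5 of 11 at an unadjusted p under 0.05, all higher in Smchd1matΔ, and the members' median was 0.4 with 3 of 7, against 8.13% of all genes. Without the pair the pan-neural median was 0.25 with 4 of 11, and the members' median 0.36 with 2 of 7, against 7.72% of all genes. Both counts of members include Nkx6-1, which passed the filter on low counts through the group where it was higher. Sox1, Neurog2 and Olig2 were too low to be tested. The counts of members are thus no support for a difference of the members as a set. The somite list, which holds Pax3, had a median of 0.84 there with 3 of 4 tested genes at an unadjusted p under 0.05, and of 0.5 with 1 of 4 without the pair, whose somite RNA is given above. The part of somite tissue in the values of Pax3 was not tested.

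Olig3, a paralogue of Olig2 that marks dorsal progenitors, is named here after its values were seen, because its pattern resembled that of Nkx6-1. It was at 3.53, 6.34, 2.18 and 3.38 CPM (23, 87, 2 and 72 counts) in the Smchd1matΔ embryos at 6 somites. Smchd1wt embryos at 6 somites had 33, 2, 0 and 13 counts, with 2.58 CPM as the highest value, so the groups overlapped. Over 6 to 8 somites Smchd1wt embryos ran from 0 to 2.58 CPM (median 0.126). At 9 to 11 somites they reached 2.13 CPM, in replicate 1 at 9 somites (175 counts). The Olig3 slope in Smchd1matΔ embryos was -1.14 ± 0.18 (adjusted p = 0.0014), and its genotype difference at 6 to 8 somites was 2.35 ± 0.65 (unadjusted p = 0.00154, adjusted p = 0.372). Smchd1matΔ embryos at 9 to 11 somites had 4, 2, 3, 5, 1, 0 and 2 counts, so for the slope it passed the filter on low counts through the earlier stages, where it was higher. Because Olig3 was chosen for these values, its p-values are no support for a fall or a difference. The first 2 of the Smchd1matΔ values at 6 somites are those of the pair rich in ribosomal RNA counts, and the third is 2 counts in the shallowest library. Without the pair the slope was -1.14 ± 0.21 (adjusted p = 0.00749) and the difference 2.3 ± 0.75 (unadjusted p = 0.00601, adjusted p = 0.524).

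Each of the 9 members with a mean of at least 10 counts was finally set beside the 14741 genes that passed the filter on low counts with the 2 genotypes as groups. The measure was Pearson's r of log2 CPM over the 37 embryos, which share the same libraries, depths and stages. Sox1 was most like Glis2 (r = 0.81), Tmem100 (0.77) and Matn3 (0.73), and these hardly changed without the 2 embryos farthest out in Sox1 (0.82, 0.72 and 0.73). Hes3 was most like Alkbh4 (0.74), Gbx2 (0.71), a posterior neural plate and hindbrain factor, and Zic5 (0.7), a zinc finger factor of the dorsal neural plate. Irx3 was most like Pgls, Tpgs1 and Mknk2 (0.82, 0.81 and 0.81). Neurog2 was closest to Pabpc4 (0.68), Sox3 (0.66) and Gm26538 (0.65), Nkx6-1 to 9330121J05Rik (0.74), Nmnat2 (0.72) and Wfikkn1 (0.71), and Pax3 to Prickle1 (0.72), Nhsl1 (0.69) and Enc1 (0.68).

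Without the 2 embryos farthest out in the member, r was 0.6, 0.67 and 0.59 for the genes of Hes3, 0.62, 0.56 and 0.57 for those of Pax3, and 0.65, 0.59 and 0.62 for those of Nkx6-1. It was 0.8, 0.76 and 0.77 for those of Irx3 and 0.68, 0.58 and 0.59 for those of Neurog2.

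The nearest genes of Irx5, Pax6 and Pax7 are given with both values. For Irx5 they were Gm49894, Synpo and 1700029I15Rik (0.87, 0.82 and 0.82, falling to 0.63, 0.31 and 0.29 without 2 embryos). For Pax6 they were Has2os, Ccdc96 and Pygo1 (0.81, 0.8 and 0.78, falling to 0.66, 0.51 and 0.57) and for Pax7 Erich2os, Mterf1b and AC124108.1 (0.81, 0.78 and 0.76, falling to 0.58, 0.52 and 0.56). No member was among the 3 genes most like another member. The highest r between members was 0.6, for Sox1 and Irx5, followed by 0.47 for Sox1 and Pax6 and 0.46 for Nkx6-1 and Hes3. Between the paralogues it was 0.01 for Pax3 and Pax7 and 0.21 for Irx3 and Irx5. By rank (Spearman's rho) the values were 0.15 and 0.46, so that of the Irx pair depended on the measure.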

How the data were processed

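Tailbud RNA from single mouse embryos was sequenced as 75 bp single-end reads. The authors trimmed reads with Trim Galore 0.4.4, mapped them to GRCm38.p6 with HISAT2 2.0.5 and quantified genes in SeqMonk, and deposited raw counts per gene. TruSeq libraries were stranded or unstranded, which library was which is not given in the sources used here, and counts were not separated by strand. The authors' tables of their own comparisons and of log2 values for Hox genes were not used. Of 35591 table rows, 49 repeated identifiers were dropped and 26 gene names turned into dates were restored.

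The members and gene lists were chosen with earlier results of these data known. Named genes were the 10 members, at most 3 genes per list with the smallest p, the 3 genes most like each member, and paralogues by level. Markers of tissue and region given by level alone, and Olig3, were chosen after their values were seen. Lists and Olig3 were also refitted without the 2 libraries high in ribosomal RNA, an alternative chosen after seeing the data. Groups came from the labels, and p-values measure the spread between embryos. Counts were tested with edgeR 4.0.16 (R 4.3.3) quasi-likelihood tests after filterByExpr (minimum count 10) and TMM. Sex and, between genotypes over several stages, stage were covariates, while tests within a single stage had no covariate. Adjustment was by Benjamini-Hochberg over all genes tested, at 0.05. The 95% intervals used the t quantile of the fit. All 42 pairs of libraries within a group differed beyond sampling noise. Tested on simulated data, 92% of 199 genes with a slope of 0.4 were recovered in Smchd1wt (15434 genes) and 94% of 199 genes with a genotype difference of 1 over all stages (14644 genes). The changed genes were drawn at random from all genes that passed the filter. These shares thus do not hold for members with few counts, such as Sox1, Neurog2 and Nkx6-1. Exons were from GENCODE M21. Alternatives were DESeq2 1.42.0, its size factors, no filter, sex and library subsets, a replicate block and leaving out each library.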

Additional observations from a re-analysis of the deposited data

Results flagged for a closer look

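Of 36 groups of 4 embryos of a member, 2 held an embryo far from the other 3, where chance gives about 1 in 20. Sox1 was at 1.82 CPM (25 counts) in Smchd1matΔ replicate 2 at 6 somites, against 0, 0 and 0.235 CPM in the other embryos of that group. Nkx6-1 was at 0.154 CPM (2 counts) in Smchd1wt replicate 2 at 10 somites, against 0.598, 0.604 and 0.684 CPM in the others.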

How the results depend on the processing

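Among the recomputed counts of called members, 308 stayed within 1.5 times the main count and 17 did not, and no named result reversed. Most comparisons had a main count of 0, which any refit without a call left unchanged, so the 308 do not measure stability. Of the 17, 9 were among 21 leave-one-out and 9 other refits of the Smchd1wt slope. Another 6 were among 16 and 10 of the Smchd1matΔ slope. An unchanged count can hide a swap, as of Nkx6-1 for Sox1 without the pair rich in ribosomal RNA counts. In Smchd1wt embryos the number of members with a called slope was 1, 2 with no filter (Sox1 and Olig2), 0 without the 6-somite embryos and 0 to 1 when a library was left out. In Smchd1matΔ embryos it was 1, 2 with DESeq2, 2 without the 6-somite embryos, 2 without libraries under 5000000 counts (chosen after seeing the data) and 0 to 2 when a library was left out. Between genotypes at 6 to 8 somites it was 0, and 2 with no filter and with DESeq2. With the longest transcript as length, the levels of Pax3 and Pax6 were 2.42 and 0.68 RPKM. The causes were not tested.

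Replicate numbers were not used as pairs in the main fits. Of 16 pairs of same-numbered embryos, 4 had a correlation of deviations over 0.1 (range -0.29 to 0.65), with 0.65 and 0.4 at 9 somites. Deviations were taken from the means of small groups, so these values cannot show whether the numbers pair the samples. With the replicate block the called members were again 1 in Smchd1wt (Sox1, 0.45, adjusted p = 0.0353), 1 in Smchd1matΔ (Nkx6-1, -0.79, adjusted p = 0.0351) and 0 in the other comparisons. Sex as a covariate was not run at 6 somites, where all embryos were female. Depth limits Sox1, Neurog2, Nkx6-1 and Olig2 most, since each averaged under 16 counts per library.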
